A study of Homo sapiens with 90 samples.

Results

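The 9 genes described here, SELENOP, OLFML2A, CCDC80, AMY2B, PLAAT4, IQCN, TLCD2, EBF4 and MYEOV, are genes whose RNA moved the same way in most or all of 6 human cancer cell lines when each line was given its own targeted drug, or when a transcription inhibitor was added to that drug. They are 9 of the 53893 gene IDs of the expression table, and they were picked from earlier results on these same libraries. What the choice used, the targeted drug at 48 h against vehicle and the combination against the targeted drug, is therefore given below as a description with no test. The comparisons that were tested are THZ1 alone against vehicle, the combination against THZ1 alone, and 7 days of the targeted drug against vehicle or against 48 h. They share an arm with those that chose the genes, so their values stand beside each other and were not correlated. The interaction of the drugs was fitted as well, but it contains both contrasts that chose the genes, so nothing is read from it.

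Each is an established cancer cell line that was paired with 1 kinase inhibitor. A375 is a melanoma line and was given vemurafenib, a BRAF inhibitor, at 1 uM. Of the 3 lung cancer lines, PC9 was given erlotinib, which blocks EGFR, at 1 uM, H3122 crizotinib, which blocks ALK and MET, at 250 nM, and A549 GSK1120212 (the MEK inhibitor trametinib) at 200 nM. The gastric cancer line N87 was given lapatinib, which inhibits EGFR and HER2, at 100 nM, and the bladder cancer line RT112 received BGJ398, which blocks FGFR kinases, at 1 uM. THZ1 binds covalently to CDK7, a kinase of the transcription machinery, and was used at 50 nM in A375 and H3122, 150 nM in A549, 25 nM in N87 and 100 nM in PC9 and RT112. The 5 arms of a line were 0.1% DMSO for 48 h, the targeted drug for 48 h, THZ1 for 48 h, both drugs together for 48 h (the combination) and the targeted drug for 7 days, with 3 libraries in each. There was no vehicle arm at 7 days, so in 7 days against DMSO the drug and the time in culture cannot be told apart. The series asks, by its title, whether repressing transcription suppresses adaptive responses to targeted therapy.

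All 6 drugs act on the route from growth factor receptors through RAS, RAF, MEK and ERK, and several of them also on PI3K and AKT signalling. When this signalling stops, transcription factors of the ETS and AP-1 families that ERK supports lose activity, while FOXO factors, which AKT holds out of the nucleus, can enter it. Cells that survive such drugs are known to change many secreted and membrane proteins. CDK7 phosphorylates RNA polymerase II at the start of transcription, and its inhibition lowers short-lived transcripts first. The members come from no single pathway: 3 encode proteins released from the cell or laid down in matrix (SELENOP, OLFML2A, CCDC80), 1 a secreted enzyme (AMY2B), 2 membrane proteins (PLAAT4, TLCD2), 1 a transcription factor (EBF4), and the remaining 2 (IQCN and MYEOV) are less well understood.

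Because the members moved together, the bases just before their transcription starts were compared. RefSeq (GRCh38.p14) had such an entry for 7 of the 9 symbols. The 4 shown are the 3 that hold 1 of the searched motifs beyond the TATAAA box, followed by the most GC-rich member for contrast. Each runs 5′ to 3′ on the strand of the gene over the 250 bases before the start, with matches in capitals. The searched motifs, on both strands, were TGTTTAC (FOXO), TGACTCA (AP-1), CCGGAAG (ETS), GGAATGT (TEAD), CACGTG (E-box) and the box of letters TATAAA. The stretches lie at chr5:42811893-42812142 on the minus strand for SELENOP, chr1:103571339-103571588 on the plus strand for AMY2B, chr19:18274453-18274702 on the minus strand for IQCN and chr20:2692530-2692779 on the plus strand for EBF4.
SELENOP: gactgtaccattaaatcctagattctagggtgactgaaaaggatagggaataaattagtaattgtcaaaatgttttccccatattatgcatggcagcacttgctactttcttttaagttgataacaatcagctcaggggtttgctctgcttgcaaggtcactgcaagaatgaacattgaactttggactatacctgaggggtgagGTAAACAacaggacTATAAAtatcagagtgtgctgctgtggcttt
AMY2B: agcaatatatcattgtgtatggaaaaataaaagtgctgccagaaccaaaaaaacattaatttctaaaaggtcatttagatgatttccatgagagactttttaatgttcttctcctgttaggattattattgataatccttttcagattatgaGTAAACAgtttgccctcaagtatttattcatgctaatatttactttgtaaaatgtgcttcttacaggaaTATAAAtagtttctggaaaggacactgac
IQCN: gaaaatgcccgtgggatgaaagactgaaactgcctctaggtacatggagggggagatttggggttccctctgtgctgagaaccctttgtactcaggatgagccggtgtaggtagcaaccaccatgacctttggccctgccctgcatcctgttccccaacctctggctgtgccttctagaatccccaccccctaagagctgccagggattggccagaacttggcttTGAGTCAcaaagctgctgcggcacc
EBF4: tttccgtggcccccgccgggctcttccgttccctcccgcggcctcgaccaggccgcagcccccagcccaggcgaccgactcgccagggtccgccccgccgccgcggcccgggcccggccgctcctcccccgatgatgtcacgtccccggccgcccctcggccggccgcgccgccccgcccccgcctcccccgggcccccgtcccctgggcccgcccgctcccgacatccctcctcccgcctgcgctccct

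The SELENOP and AMY2B stretches were alike in 2 ways. Each held the FOXO letters, read on the other strand as GTAAACA, beginning 45 bases before the start in SELENOP and 98 bases before it in AMY2B. Each also held TATAAA, beginning 31 and 29 bases before the start. The FOXO letters occur in 3.42% and TATAAA in 11.53% of all 35116 windows of 300 bases, which also take in 50 bases after the start. IQCN held the AP-1 letters, read as TGAGTCA, beginning 25 bases before its start, and 4.95% of all windows hold them. EBF4, TLCD2, CCDC80 and OLFML2A held none of the searched letters. The GC content of the window was 30.7% for AMY2B, 42.0% for SELENOP, 56.3% for IQCN and 83.7% for EBF4, beside a median of 58.7% over all windows. A match describes letters only, and no factor's binding was measured in these libraries.

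Library totals ran from 5.64 to 14.36 M counts (median 11 M). Values are CPM, the count of a gene scaled to the total of its library, unless stated otherwise. CPM are shares of a library, so a change in total RNA per cell would not show in them. Each of the 90 libraries had its nearest neighbour within its own group. Replicate 1 of RT112 in several arms and replicate 1 of H3122 at 7 days stood somewhat apart, and 1 A375 vemurafenib library carries a lung label while its nearest libraries are A375. Whether the 3 libraries of a group are separate cultures is not said in the labels, and p-values from a single line therefore measure only the spread between these samples, which may be technical. Of the markers of the tissue of origin, 3 to 6 of 8 melanocyte markers reached 1 CPM in the arms of A375 and 7 to 8 of 9 urothelial markers in RT112. In N87, 3 to 4 of 9 gastric markers did so. Of 8 lung markers, 3 to 4 did so in H3122, but only 0 to 1 in PC9 and 0 to 2 in A549. The lists were not particular to their lines: 6 to 8 of 9 urothelial markers reached 1 CPM in N87, and 5 to 6 of 9 gastric markers in A549. Since SELENOP is mainly a liver protein, hepatocyte markers were also read: 3 to 5 of 7 reached 1 CPM in A549, and 0 to 2 did so in A375 and N87. In bulk RNA, fewer cells that express a gene and less of its RNA per cell cannot be told apart.

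Under the targeted drug at 48 h, the 8 members other than MYEOV were higher than in DMSO and MYEOV was lower, which is what chose them. Of the 48 pairs of such a member and a line, all 3 drug libraries lay above all 3 DMSO libraries in 44, and the other 4 overlapped: CCDC80 in A375, AMY2B in RT112, TLCD2 in H3122 and EBF4 in A549. All MYEOV drug libraries lay below the DMSO libraries in all 6 lines. Over all genes and lines tested, 37.5% of pairs were higher without overlap and 33.1% lower, and 5.68% of genes were higher in all 6 lines and 7.99% lower. With THZ1 added to the drug, 38 of the 48 pairs were lower without overlap than under the drug alone, 4 were higher and 6 overlapped, and MYEOV was higher in 5 lines and lower in 1. Over all genes 28.1% of pairs were lower and 34.6% higher. OLFML2A, PLAAT4 and EBF4 were lower in all 6 lines, as 1.98% of all tested genes were, and 3.62% were higher in all 6. Since these contrasts chose the members, nothing is read from the counts.

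**Figure D1:**
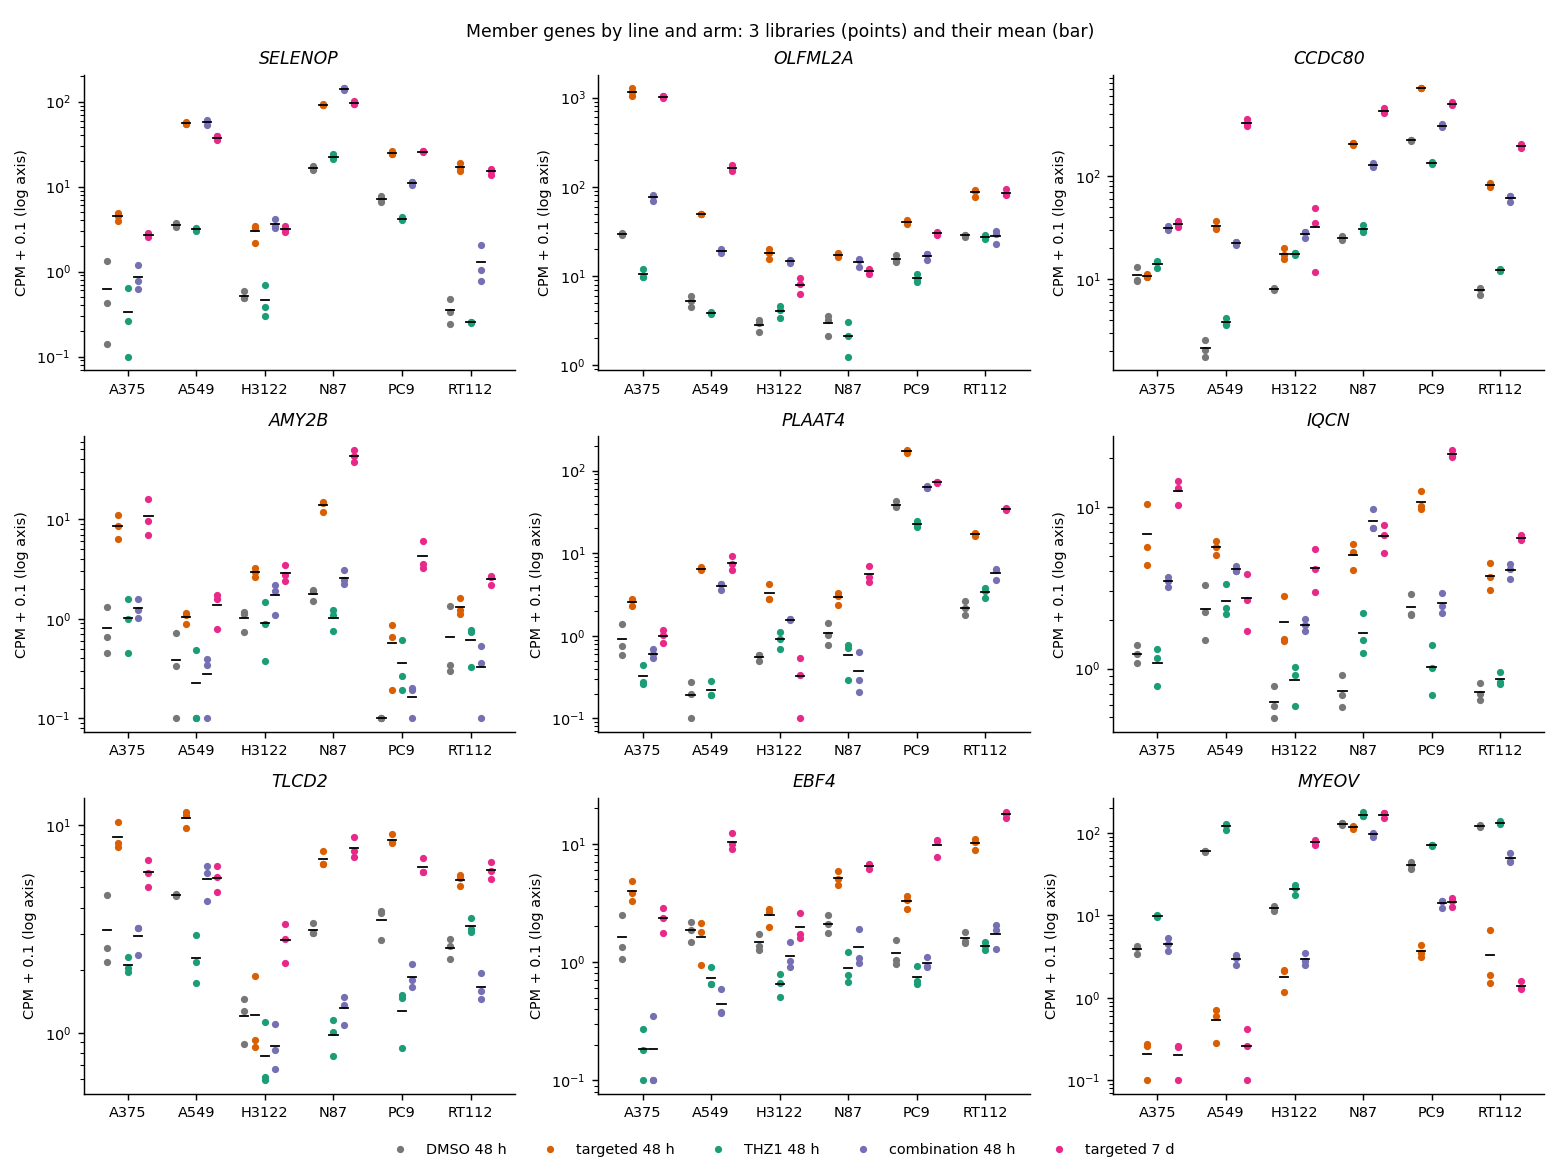
CPM of the 9 members in each of the 90 libraries (log axis, 0.1 added to each value so that libraries at 0 can be drawn), by line and coloured by arm; each point is 1 library and each short bar the mean of 3. SELENOP in RT112 sits at 0.143 to 0.373 CPM in DMSO and at 15.3 to 18.8 under BGJ398, and MYEOV in A549 at 59.2 to 60.1 in DMSO and 0.180 to 0.607 under trametinib.

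SELENOP (ENSG00000250722.1, chromosome 5) encodes selenoprotein P, a plasma protein that carries selenium from the liver to other tissues. In RT112 the 3 DMSO libraries held 0.143, 0.232 and 0.373 CPM and the 3 BGJ398 libraries 15.3, 16.5 and 18.8. Every drug library was far above every DMSO library. With THZ1 in the combination the values were 0.671, 0.956 and 1.95 CPM, between the other groups and overlapping neither. The 7-day libraries stood at 13.8, 15.2 and 16.1 CPM, near the 48 h drug level. A549 differed in the effect of THZ1: DMSO libraries held 3.23, 3.56 and 3.59 CPM, trametinib libraries 54.6, 54.9 and 57.2, and combination libraries 53.2, 58.7 and 60.6. The drug and the combination overlapped there. Hepatocyte markers were also higher under trametinib in A549, with a summed level of 143 to 149 CPM in DMSO and 584 to 679 under trametinib. It was 87.8 to 104 CPM under THZ1, 454 to 523 in the combination and 280 to 308 at 7 days. For the markers the combination lay below trametinib without overlap, while SELENOP overlapped there. The markers were also lower at 7 days than at 48 h of trametinib. SELENOP in A549 was lower there too without overlap, at 34.9, 39.0 and 39.1 CPM at 7 days. APOA1 and FGB made up most of the summed level, APOA2 was at 0 in every arm, and the part of these markers in the SELENOP values was not tested. In H3122, PC9 and RT112, where SELENOP was also higher under the drug, 0 of 7 reached 1 CPM in the drug arm at 48 h. N87 had the highest levels of any line, with a mean ± SD (n = 3) of 16.6 ± 1.05 CPM in DMSO, 91.9 ± 2.30 under lapatinib and 142 ± 3.56 in the combination. N87 was the only line in which the combination was above the drug without overlap. Relative to the drug alone, the combination was lower without overlap in A375, PC9 and RT112, and H3122 overlapped as A549 did. Across lines the log2 difference ± SE, the latter worked back from the F value of the edgeR fit, was 3.43 ± 0.57 for the targeted drug against DMSO. For adding THZ1 it was -0.93 ± 0.51.

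LRP8, the receptor through which several tissues take up selenoprotein P, went the other way. It was lower without overlap under the targeted drug in all 6 lines, from a mean of 77.4 to 7.41 CPM in PC9 and from 94.2 to 20.7 in RT112. LRP8 is named because it had the largest fall of the selenium genes in this contrast, so its values are a description with no test. Its log2 difference across lines was -2.43 ± 0.34 under the targeted drug, 1.26 ± 0.34 when THZ1 was added to it, higher without overlap in 5 lines, and -2.32 ± 0.34 at 7 days against DMSO, lower without overlap in all 6. Of the 23 tested selenoprotein and selenium-handling genes other than SELENOP, 0 rose and 3 fell under the targeted drug: LRP8, SCLY (log2 change -0.89 ± 0.15, adjusted p 0.000283), which releases selenium from selenocysteine, and SELENOI. Over all genes tested 19.1% rose and 18.2% fell, so these counts are not above the general share. The median log2 change of the list was 0.08, and 0.06 over all genes. At 7 days against DMSO 2 rose, SELENOS by 0.55 and SELENOK by 0.45, and 3 fell, beside 24.1% and 19.5% of all genes.

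**Figure D2:**
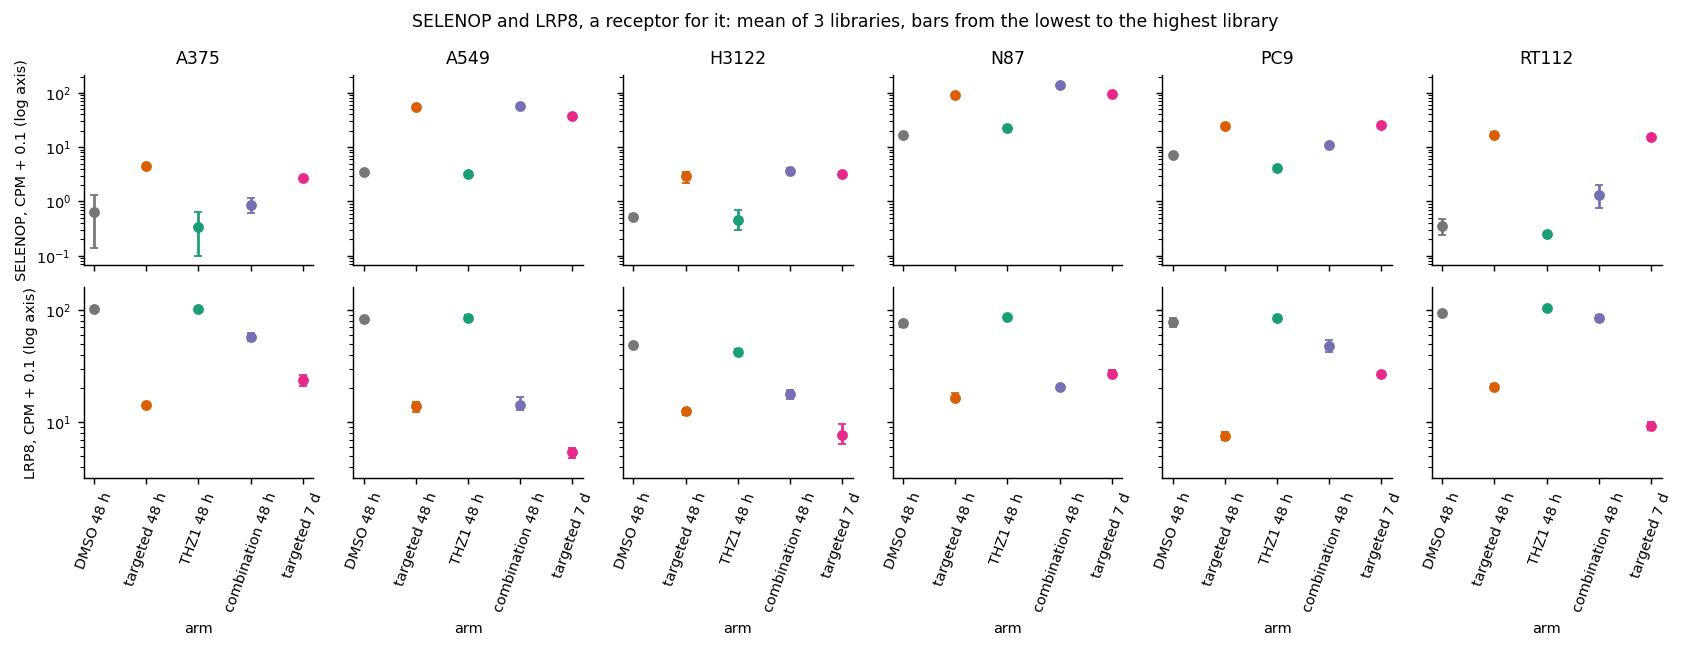
Mean CPM of SELENOP and of LRP8 in each of the 5 arms of each line (log axis, 0.1 added to each value; bars run from the lowest to the highest of 3 libraries). LRP8 lies between 48.7 and 103 CPM in the DMSO arms and between 7.41 and 20.7 under the targeted drugs at 48 h, while SELENOP is higher under the drug in every line.

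OLFML2A (ENSG00000185585.14, chromosome 9) encodes an olfactomedin domain protein that is secreted and binds glycosaminoglycans of the matrix. Its widest range was in A375: 28.6, 29.7 and 30.02 CPM in DMSO, 1052, 1143 and 1280 under vemurafenib, and 69.95, 78.4 and 79.7 in the combination. The drug libraries were 39.3-fold above DMSO in their means, and the combination lay between both with no overlap. At 7 days the A375 libraries still held 984, 1033 and 1052 CPM. In A549 the 7-day mean of 163 ± 12.8 CPM (SD, n = 3) was above the 48 h mean of 49.4 ± 0.520, while in H3122 it was lower, 7.88 ± 1.63 against 17.9 ± 2.36. In RT112 the combination, at 27.9 ± 4.56 CPM, overlapped DMSO at 28.4 ± 0.928, whereas BGJ398 alone gave 86.8 ± 8.23. The combination was below the targeted drug without overlap in all 6 lines.

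CCDC80 (ENSG00000091986.10, chromosome 3) encodes a secreted matrix protein found in fat and other connective tissue. Its level in DMSO differed widely between lines, from 2.03 ± 0.410 CPM in A549 to 223 ± 1.55 in PC9. In A549 the DMSO libraries held 1.66, 1.96 and 2.47 CPM, the trametinib libraries 30.4, 31.2 and 36.4 at 48 h, and 305, 327 and 362 at 7 days. The 3 groups followed each other with no overlap, and the 7-day mean was 163-fold above DMSO. A375 was the exception at 48 h: DMSO libraries held 9.53, 9.70 and 13 CPM and vemurafenib libraries 10.3, 10.5 and 11.1. Those groups overlapped, yet the combination, at 30.1, 31.2 and 32.7 CPM, lay above both. In H3122 the 7-day libraries spread from 11.5 through 35.2 to 48.3 CPM, and the low one is the replicate 1 that stands apart. In PC9 the targeted drug gave 718 ± 0.503 CPM at 48 h and 507 ± 16.5 at 7 days.

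AMY2B (ENSG00000240038.2, chromosome 1) encodes an alpha-amylase of the digestive type, usually known from the pancreas. In N87 it went from 1.42, 1.78 and 1.85 CPM in DMSO to 11.6, 14.5 and 14.9 under lapatinib, and to 37.5, 42.8 and 49.4 at 7 days. The 3 groups did not overlap. In PC9 all 3 DMSO libraries were at 0, against 0.0910, 0.556 and 0.774 CPM at 48 h of erlotinib and 3.15, 3.45 and 5.97 at 7 days. Set against 3 counts over the DMSO group, a limit of 0.0875 CPM that covers counting error only, the 48 h mean was at least 5.41-fold higher and the 7-day mean at least 47.9-fold higher. The combination in N87 was down at 2.49 ± 0.442 CPM, and in A375 vemurafenib gave 8.47 ± 2.32 and the combination 1.18 ± 0.291. Most AMY2B values, 72 of 90, were not whole numbers, as the counting divides reads that match several genes, so its level is uncertain. The amylase genes are near-identical copies, but which genes shared the reads was not tested. The same holds in part for SELENOP, with 41 of 90 values not whole, and OLFML2A, with 25 of 90. The other members had 0 such values. AMY2B also overlaps RNPC3, a minor spliceosome gene on the same strand, which rose by a log2 of 0.73 ± 0.25 under the targeted drug (adjusted p 0.0251, without overlap in 5 of 6 lines and lower in 1). RNPC3 reads were not separated from AMY2B reads here. Of 7 pancreatic acinar markers none reached 1 CPM in any arm outside H3122, where 0 to 1 did.

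PLAAT4 (ENSG00000133321.6, chromosome 11), also known as RARRES3, encodes a membrane-associated phospholipase and acyltransferase known as a gene induced by retinoids and by interferon. PC9 stood far above the other lines, with 35.7, 36.9 and 43.4 CPM in DMSO and 163, 171 and 179 under erlotinib. The groups were well apart, and the combination lay between them at 62.6 ± 2.49. In A549 the DMSO libraries held 0, 0.0979 and 0.175 CPM, a total of 3 counts, and the trametinib libraries 6.24, 6.28 and 6.73. The A549 combination libraries, at 3.48, 4.10 and 4.18 CPM, were below trametinib and above DMSO without overlap. At 7 days H3122 fell back to 0, 0.237 and 0.443 CPM from 3.19 ± 0.853 at 48 h, while RT112 reached 34.7 ± 0.968 from 16.9 ± 0.651. Among 8 other retinoid-response genes tested, 2 rose under the targeted drug (DHRS3 by 0.89 and RXRA by 0.64) and 1 fell (TGM2, by 2.39), with a median log2 change of 0.08. Among 14 interferon-response genes 8 rose and 0 fell, with IFIT2 at a log2 change of 1.80 and IRF9 at 1.63; the median was 1.02. Over all genes tested 19.1% rose and 18.2% fell.

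TLCD2 (ENSG00000185561.8, chromosome 17) encodes a TLC-domain membrane protein of the group that tunes the lipid makeup of the plasma membrane. It had the smallest range among the members. In N87 the libraries held 2.91, 2.92 and 3.26 CPM in DMSO, 6.36, 6.42 and 7.43 under lapatinib, 0.671, 0.907 and 1.05 under THZ1 and 0.988, 1.27 and 1.39 in the combination. THZ1 and the combination were both below DMSO there, and those 2 groups overlapped. In H3122 crizotinib gave 1.12 CPM at 48 h and DMSO 1.10, with overlap. Across lines the log2 difference was 1.19 ± 0.30 for the targeted drug and -1.68 ± 0.30 for adding THZ1 to it. In the combination TLCD2 was not above DMSO without overlap in any line and was below it in 3. Of 10 other TLC-domain genes tested, 3 rose under the targeted drug, among them CERS4 by 1.57 and TRAM1 by 0.95, and 0 fell, beside 19.1% and 18.2% of all genes tested. Their median log2 change was 0.14, and 0.06 over all genes.

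EBF4 (ENSG00000088881.13, chromosome 20) encodes a member of the early B-cell factor family of transcription factors. In DMSO its level was low and much the same in every line, from 1.08 to 2.02 CPM in the means, with overlapping libraries. RT112 had the clearest difference, from 1.36, 1.42 and 1.70 CPM in DMSO to 8.81, 10.2 and 10.9 under BGJ398 and 16.6, 17.9 and 18.6 at 7 days. The combination brought RT112 back to 1.64 CPM. In A375, EBF4 held 0.970, 1.23 and 2.41 CPM in DMSO, 3.19, 3.72 and 4.77 under vemurafenib, 0, 0.0820 and 0.170 under THZ1 and 0, 0 and 0.251 in the combination. The libraries with THZ1 were the lowest and amount to 2 and 3 counts per group, so no fold is given. In A549 trametinib did not separate from DMSO at 48 h, but at 7 days the libraries held 8.88, 9.78 and 12.2 CPM against 1.75 in DMSO. Of 6 B-lineage markers 0 to 2 reached 1 CPM, and no other EBF gene passed the filter for the test across lines.

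IQCN (ENSG00000130518.7, chromosome 19) encodes a protein with calmodulin-binding IQ motifs. In N87 the libraries held 0.480, 0.583 and 0.819 CPM in DMSO, 3.96, 5.15 and 5.79 under lapatinib, 1.15, 1.41 and 2.11 under THZ1 and 7.30, 7.35 and 9.53 in the combination. All 4 groups stood apart, DMSO lowest, then THZ1, lapatinib and the combination. In PC9, THZ1 did the opposite: 2.31 ± 0.415 CPM in DMSO went with 0.93 ± 0.356 under THZ1, and 10.7 ± 1.53 under erlotinib with 2.43 ± 0.374 in the combination. The highest 7-day levels were in A375, at 12.5 ± 2.16 CPM, and in PC9, at 21.0 ± 1.25. In A549 they were back at 2.65 ± 1.08 CPM, which overlaps DMSO at 2.24 ± 0.888. JUND, an AP-1 subunit whose gene is a neighbour of IQCN, rose under the targeted drug by a log2 of 0.64 in edgeR's test (adjusted p 0.00232, higher in 6 of 6 lines). It was among the 9 genes called across lines under THZ1 alone, at -0.88 ± 0.15 (adjusted p 0.0195, lower in 6 of 6 lines). Over all genes, 5.68% were higher in all 6 lines under the targeted drug and 1.84% lower in all 6 under THZ1. The genes around IQCN did not move as 1: of 9 tested, JUND among them, 2 rose and 2 fell under the targeted drug. Their median log2 change was -0.15, and 19.1% of all genes tested rose and 18.2% fell.

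MYEOV (ENSG00000172927.3, chromosome 11) is a gene next to CCND1, the gene of cyclin D1, in a region often amplified or rearranged in cancer. It was the one member that was lower under the targeted drug. In A549 the libraries held 59.2, 59.6 and 60.1 CPM in DMSO, 0.180, 0.506 and 0.607 under trametinib, 108, 125 and 130 under THZ1 and 2.43, 2.95 and 3.17 in the combination. The 4 groups did not overlap, with THZ1 alone highest and trametinib alone lowest. In A375 the order was 3.29, 4.04 and 4.17 CPM in DMSO, 0, 0.159 and 0.173 under vemurafenib, 9.34, 9.75 and 10.0 under THZ1 and 3.64, 4.44 and 5.15 in the combination. The combination there overlapped DMSO. In RT112 the BGJ398 libraries held 1.42, 1.79 and 6.49 CPM against 121 ± 3.73 in DMSO, and the high one is replicate 1, which stands apart. N87 differed from the other lines: DMSO held 124, 131 and 133 CPM and lapatinib 113, 119 and 121, lower without overlap but close. In H3122, where crizotinib lowered MYEOV from 11.1, 12.3 and 13 CPM to 1.09, 1.99 and 2.05 at 48 h, the 7-day libraries held 72.3, 78.7 and 82.3, above DMSO.

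CCND1 followed MYEOV in most of these contrasts. Under the targeted drug its mean CPM went from 334 to 75.3 in A549, from 533 to 143 in A375, from 4245 to 1904 in H3122 and from 804 to 646 in N87. Its log2 change across lines was -1.65 ± 0.29 with edgeR's quasi-likelihood test (adjusted p 0.000318, lower in 6 of 6 lines). THZ1 alone gave 1063 CPM in A375 and 7236 in H3122, above DMSO without overlap, as in 4 of 6 lines. At 7 days H3122 was at 4575 CPM, above DMSO without overlap but not called in that line (log2 difference 0.05, adjusted p 0.287), and the other 5 lines were below DMSO. The direction differed in N87 at 7 days, where MYEOV was called higher than in DMSO and CCND1 was lower without overlap, at 0.736 of the DMSO mean. The size differed between the genes as well: in A549, 7 days of trametinib left MYEOV with 3 counts in all 3 libraries, from 2061 in DMSO, and CCND1 with 76.6 CPM. Among 9 tested genes around MYEOV and CCND1, only CCND1 and MRPL21 (log2 change -0.51) fell under the targeted drug and 0 rose, beside 18.2% and 19.1% of all genes tested. The median log2 change of these 9 genes was -0.07.

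**Figure D3:**
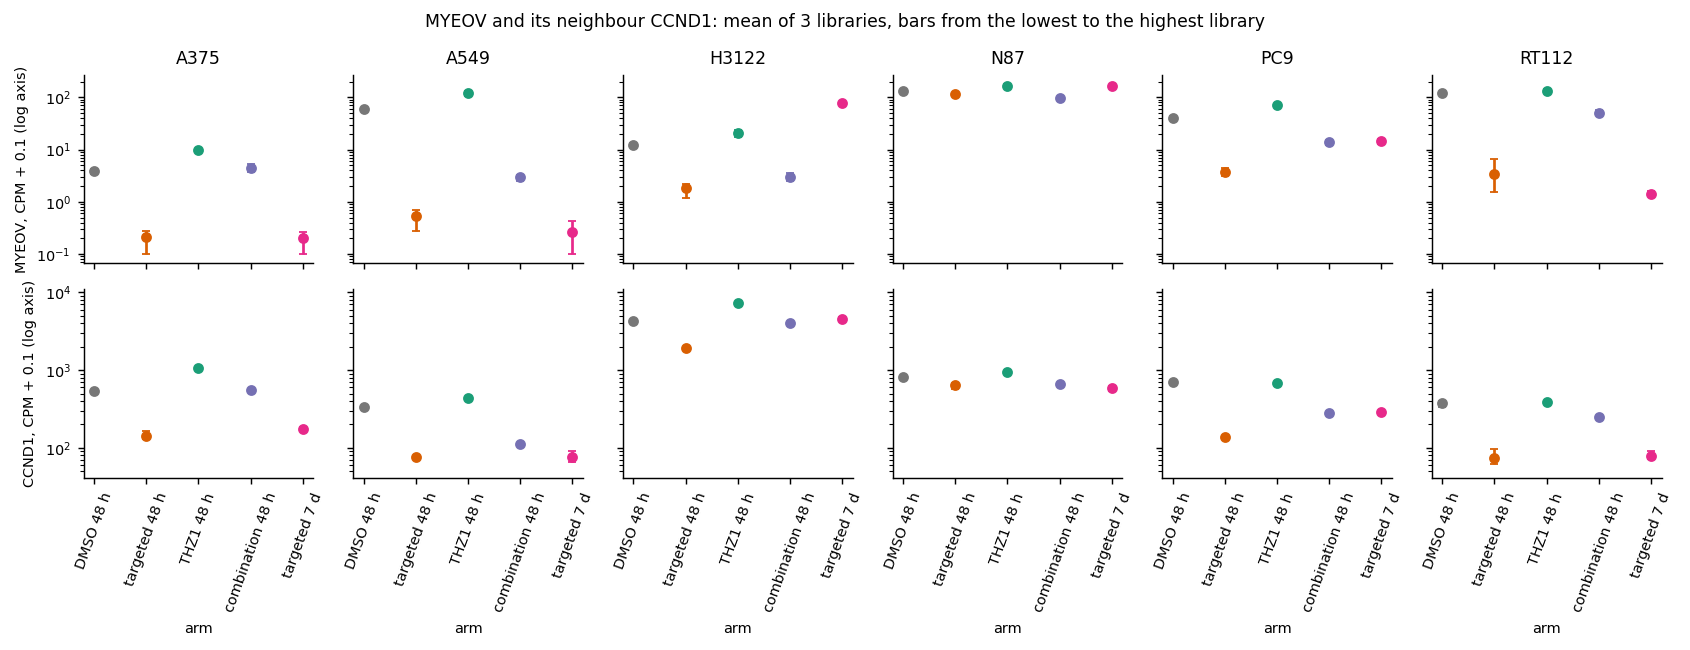
Mean CPM of MYEOV and of its neighbour CCND1 in each of the 5 arms of each line (log axis, 0.1 added to each value; bars run from the lowest to the highest of 3 libraries). Both are lower under the targeted drug at 48 h in every line, and in H3122 the 7-day arm is above DMSO for both, at 77.8 CPM for MYEOV and 4575 for CCND1.

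THZ1 alone against DMSO was not used to choose the members, though it shares the DMSO arm with a comparison that was. Across lines, 0 of the 9 members passed edgeR's quasi-likelihood test at an adjusted p under 0.05, beside 0.0758% of all 11871 genes tested, and DESeq2 also called 0. With only these 2 arms fitted, MYEOV was called, at 0.66 ± 0.14 (adjusted p 0.0311). The calls over all genes rose from 9 to 694 in that fit, were 194 in DESeq2, and fell to 0 without A375, A549, N87 or RT112. For 2 members the fit gave an unadjusted p under 0.05, EBF4 with a log2 change of -1.44 ± 0.47 (p 0.00529, adjusted p 0.186) and TLCD2 with -0.81 ± 0.31 (p 0.0143, adjusted p 0.269). MYEOV was higher without overlap in all 6 lines, as 3.39% of tested genes were, with a log2 difference of 0.74 ± 0.96 (adjusted p 0.873). Within lines, where the spread is that between libraries, 30 of the 54 member and line pairs were called, 14 higher and 16 lower, beside 41.9% of all pairs (20.6% higher and 21.3% lower). MYEOV rose in 5 lines, by 1.24 ± 0.22 in A375 (adjusted p 8.61e-05), 1.01 ± 0.07 in A549, 0.75 ± 0.12 in H3122, 0.30 ± 0.06 in N87 and 0.74 ± 0.08 in PC9, and RT112 gave 0.07 ± 0.17. EBF4 fell in A375, A549, H3122 and N87, by 1.44 in A549 (adjusted p 0.00269) and 1.43 in N87 (adjusted p 0.00206). CCDC80 was called in all 6 lines, higher in 5 and lower in PC9 by 0.79.

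The targeted drug on a background of THZ1 was read from the combination against THZ1 alone. Across lines 2 of the 9 members were called, both higher, beside 20.7% of all genes tested (9.97% higher and 10.7% lower). That share, 2454 genes, depended on single lines, with 678 genes called without N87, 836 without A549 and 1454 without PC9. SELENOP rose by 2.85 ± 0.56 (adjusted p 0.00283) and IQCN by 1.71 ± 0.41 (adjusted p 0.00736). The 2 calls support nothing by themselves, since the members were chosen under the same drugs and partly on the same combination libraries. Both also passed the filter on low values through arms with the targeted drug. In DMSO and THZ1 alone, SELENOP would have met it in 3 lines and IQCN in 4. IQCN was called within each of the 6 lines, at 0.63 to 2.33, and SELENOP within 5, at 4.2 ± 0.09 in A549 and 1.53 in PC9, with A375 at 1.69 and an adjusted p of 0.116. OLFML2A, at 1.68 ± 0.63 (adjusted p 0.0585), and CCDC80, at 1.49 ± 0.58 (adjusted p 0.0671), did not pass, and both passed in DESeq2. AMY2B, TLCD2 and EBF4 had log2 differences of 0.24, 0.32 and 0.37. MYEOV was lower in all 6 lines without overlap, as 7.44% of tested genes were, and within each line's test, from -0.86 in N87 to -5.43 ± 0.11 in A549. Across lines MYEOV was not called, at -2.22 ± 1.04 (adjusted p 0.125), and it was called when only these 2 arms were fitted, at -2.17 ± 0.54 (adjusted p 0.0283). Within lines 34 of 54 pairs were called, 27 higher and 7 lower, beside 57.6% of all pairs (28.6% higher and 29% lower).

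**Figure D4:**
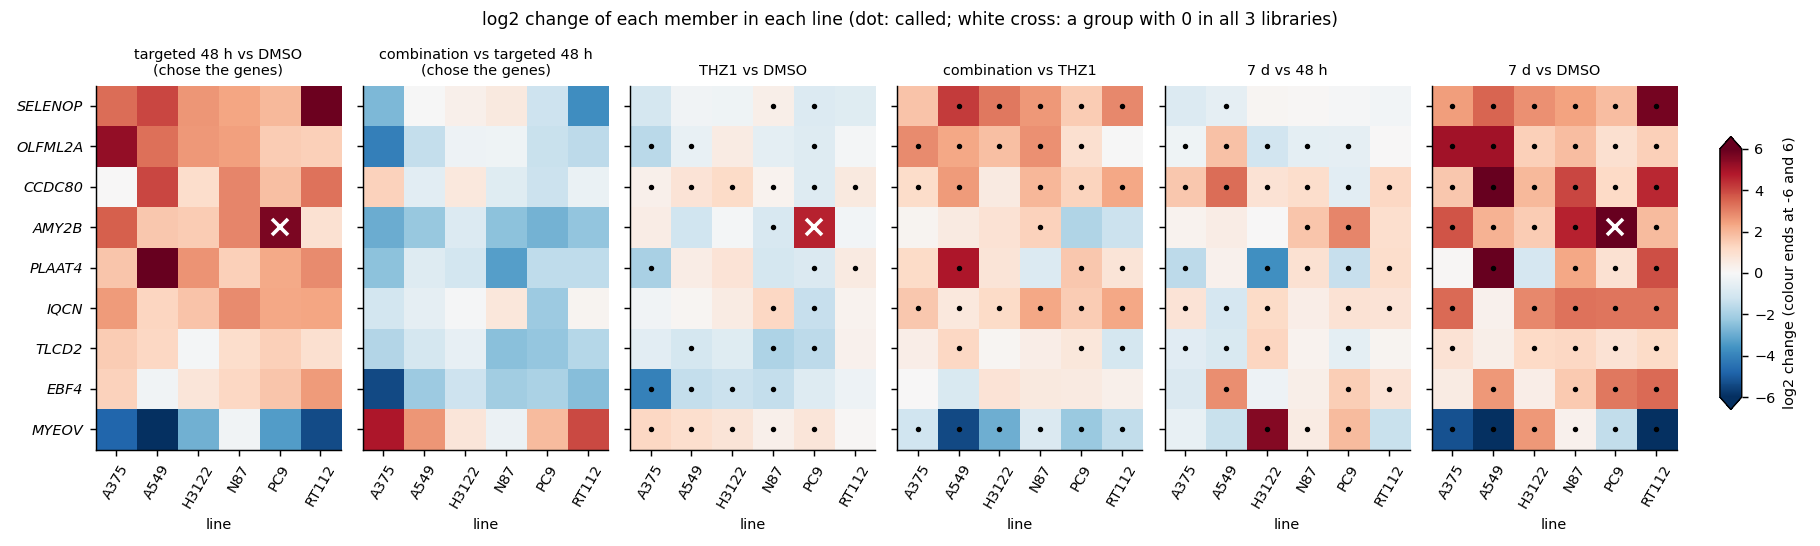
Log2 differences of the 9 members (rows) in the 6 lines (columns) in 6 comparisons, from the edgeR fit within each line; black dots mark calls in the 4 tested comparisons, and white crosses mark pairs with a group at 0 in all 3 libraries. The row of MYEOV in 7 days against DMSO runs from -8.39 in A549 to 2.62 in H3122, and EBF4 under THZ1 alone is lowest in A375.

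After 7 days of the targeted drug, 8 of the 9 members were above DMSO in edgeR's test across lines, beside 43.6% of all genes tested (24.1% higher and 19.5% lower). This count supports nothing by itself, since the members were chosen against the same DMSO libraries under the same drug. Some also passed the filter on low values through the drug arms: in DMSO and THZ1 alone, AMY2B and PLAAT4 would have met it in 2 lines and SELENOP in 3. SELENOP, OLFML2A, CCDC80, AMY2B and TLCD2 were higher without overlap in all 6 lines, as 4.78% of tested genes were. CCDC80 changed by 3.75 ± 0.66 (adjusted p 0.000172), AMY2B by 3.56 ± 0.53 (adjusted p 5.24e-05) and SELENOP by 3.17 ± 0.56 (adjusted p 0.000185). IQCN rose by 2.89 ± 0.42 (adjusted p 3.76e-05), OLFML2A by 2.97 ± 0.67 (adjusted p 0.00124), EBF4 by 2.16 ± 0.45 and TLCD2 by 1.09 ± 0.30. PLAAT4 was called at 2.36 ± 0.65 (adjusted p 0.00568), and was not when RT112 was left out (1.88, adjusted p 0.0583) or when only these 2 arms were fitted (2.10, adjusted p 0.11). MYEOV was the member not called, at -1.22 ± 1.22 (adjusted p 0.436): within lines it fell in A375, A549, PC9 and RT112 and rose in H3122, by 2.62 ± 0.11 (adjusted p 3.15e-13), and in N87, by 0.27 ± 0.06 (adjusted p 0.000387). Without H3122 it was called across lines, at -3.09 (adjusted p 0.0258). Within lines 48 of 54 pairs were called, 44 higher and 4 lower, beside 71.3% of all pairs (34.8% higher and 36.5% lower).

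Between 48 h and 7 days the lines parted. Across lines edgeR called 0 of the 9 members and 0% of all genes, with 2 members at an unadjusted p under 0.05, CCDC80 (log2 difference 1.60 ± 0.59, adjusted p 0.674) and AMY2B (1.2 ± 0.47, adjusted p 0.697). DESeq2 called 26 genes and 0 members. Within lines 34 of 54 pairs were called, 21 higher and 13 lower, beside 47.8% of all pairs (23.8% higher and 24% lower). CCDC80 rose further in 5 lines, by 3.37 ± 0.07 in A549 (adjusted p 1.78e-18), and fell by 0.63 in PC9. AMY2B rose further in N87, by 1.67 ± 0.11, and in PC9, by 2.95 ± 0.46. EBF4 rose further in 3 lines, while SELENOP, called in 1 line only, was lower there. MYEOV rose in H3122 by 5.52 ± 0.15 (adjusted p 7.55e-16), in PC9 by 1.90 and in N87 by 0.50. The interaction of the drugs asks whether adding THZ1 changed a member more under the targeted drug than in DMSO. It called 0 members and 0% of genes in edgeR and 0 in DESeq2, and the largest member value was -2.12 ± 0.75, for AMY2B. Since it contains both contrasts that chose the members, it is a description and nothing is read from it.

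The genes most like each member were taken as those with the highest Pearson correlation of log2 CPM over the 30 line and arm groups, after centring each line. The groups share lines and libraries, and they include the arms that chose the members. A high r with other genes that moved under the drugs is thus partly built in, so r is a description and nothing is read from its height. For SELENOP these were BDH2, SH3BGRL and MXD4, at 0.953, 0.951 and 0.95. PLAAT4 was closest to TAPBP, an antigen-loading gene, at 0.962, to UBA7, the activating enzyme of the ISG15 modifier, at 0.937, and to DTX3L at 0.924. MYEOV was closest to CCND1 at 0.924, to the ETS factor ETV4 at 0.912 and to KCTD6 at 0.903. OLFML2A was followed by FAM234A, HLA-E and ARHGEF10L at 0.935 to 0.931, and CCDC80 by TRAM1, SLC49A4 and IRF1 at 0.941 to 0.911. The values for TLCD2 (DALRD3, PCED1A, WDR13) were 0.924 to 0.906, for IQCN (AP5Z1, EXOC3, ZFAND5) 0.925 to 0.916 and for EBF4 (CUX1, FBXW8, SYNGR1) 0.912 to 0.877. AMY2B had the least close companions, NOP14-AS1, IDUA and HEXD at 0.864 to 0.837.

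Lists of genes of the signalling that the drugs act on give the setting of the members. Of 18 genes known as output of ERK signalling, 15 fell and 0 rose under the targeted drug at 48 h, beside 18.2% and 19.1% of all genes, with a median of -1.54 and with ETV4 at -5.10 ± 1.0 and ETV5 at -4.52 ± 0.95. Of 10 FOXO target genes 7 rose and 0 fell, with a median of 0.93, PIK3IP1, a brake on PI3K, by 3.29 ± 0.47 (adjusted p 8.9e-05) and KLHL24 by 1.79. In the combination against THZ1 alone 8 of the 10 rose, beside 9.97% of all genes, with PIK3IP1 at 2.86 (adjusted p 0.00177) and KLHL24 at 1.95. At 7 days against DMSO 7 of the FOXO targets rose and 0 fell, and 11 of the 18 ERK output genes fell. Of all genes tested 24.1% rose and 19.5% fell in that comparison. Of the 14 interferon-response genes 10 rose at 7 days, IFI6 by 2.61 and IRF9 by 1.97. These lists were drawn up with results of these libraries known.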

How the data were processed

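Per the submitters' processing notes, the authors aligned reads to hg19 with Bowtie2 2.2.1 and deposited expected counts of genes from RSEM 1.2.12. The gene annotation and the strand setting are not given in the sources used here, so overlapping genes (SELENOP with CCDC152, AMY2B with RNPC3 and ACTG1P4) cannot be told apart. Values were rounded to whole numbers. Library totals were 5.64 to 14.36 M, and 0 columns of the table were left unused. GENCODE v29 (GRCh38) gave symbols and neighbours only, and RefSeq gave the sequences.

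The members and all gene lists were chosen with earlier results of these data known. Named were the 9 members, the 3 genes most correlated with each, their 2 nearest coding neighbours on each side, and the 2 largest called changes of a list in each direction. LRP8, CCND1, JUND and RNPC3 were followed through more comparisons after their values were seen.

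Across lines, edgeR 4.0.16 in R 4.3.3 was run on the 30 group totals of counts (3 libraries added up), with TMM scaling, line and arm as terms, and its quasi-likelihood test. Tested were the 11871 genes that reached 1 CPM in at least 3 libraries within each line. All 9 members passed this filter, but in the DMSO and THZ1 libraries alone SELENOP would have met it in 3 lines, AMY2B and PLAAT4 in 2, IQCN and EBF4 in 4 and the others in 6. For tests within a line, its 15 libraries entered 1 fit after filterByExpr had kept 14810 to 16106 genes. Calls are Benjamini-Hochberg adjusted p-values under 0.05 over all genes tested. The SE of an edgeR log2 difference is its size divided by the square root of the F value of the quasi-likelihood test. For the contrasts that chose the members it is given as a spread only. Groups were called not overlapping when all 3 CPM of one exceeded all 3 of the other. The scripts were tested on simulated data.

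Replicate numbers recur between arms. Of 16 pairs of arms with 3 shared numbers, 0 had every correlation of deviations above 0.1, so libraries were not treated as pairs. In RT112 the correlations reached 0.48, for replicate 1 between BGJ398 at 48 h and at 7 days, beside at most 0.2 in the other lines. That pair of arms shares only 2 numbers, so it is not among the 16, and some pairing in RT112 remains possible. The alternatives were DESeq2 1.42.0, RLE size factors, no low-count filter, only the arms of a comparison, leaving out lines or replicates, a replicate block and no model. Leaving out the libraries that stand apart was added after the data were seen.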

Additional observations from a re-analysis of the deposited data

Results flagged for a closer look

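In the 4 comparisons that did not choose the members, 1 line stood far from the other 5 in 3 of the 36 sets of 6 lines. Chance alone flags about 1 in 20 groups. A line with a compared group at 0 in all 3 libraries was not flagged, though its set stays among the 36, so the 3 may be too few. Values are log2 differences fitted within that line. EBF4 stood apart in A375 under THZ1 alone, at -4.05, a value that rests on 2 counts under THZ1 and depends on the prior count. IQCN stood apart in A549 at 7 days, at -1.01 against 48 h and 0.28 against DMSO.

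In 11 of the 36 pairs of a member and a tested comparison, 1 line was called higher and another lower, and an F test of line differences in edgeR passed for each. The values are the highest minus the lowest line in log2, and such a line is not always a called one: SELENOP under THZ1 was called lower in PC9 and not in A375, and PLAAT4 under THZ1 higher in RT112 and not in H3122. Under THZ1 alone SELENOP in N87 and A375 differed by 1.43 (adjusted p 4.31e-06), CCDC80 in H3122 and PC9 by 1.92 (adjusted p 1.46e-10), PLAAT4 in H3122 and A375 by 2.73 (adjusted p 3.1e-07) and IQCN in N87 and PC9 by 2.60 (adjusted p 0.000352). In the combination against THZ1, TLCD2 in A549 and RT112 differed by 2.31 (adjusted p 9.71e-09). Between 48 h and 7 days, OLFML2A in A549 and H3122 differed by 2.90, CCDC80 in A549 and PC9 by 4.0, PLAAT4 in RT112 and H3122 by 4.74, IQCN in H3122 and A549 by 2.18 and TLCD2 in H3122 and A549 by 2.24, with adjusted p of 4.09e-07 or less. At 7 days against DMSO, MYEOV in H3122 and A549 differed by 11.01 (adjusted p 4.87e-49), with 3 counts left in A549. Of all tested genes 83.9 to 95.6% also differed between lines by this test, depending on the comparison.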

How the results depend on the processing

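No value past the threshold changed sign under the alternatives run. Of values across lines that were not called, 5 changed sign in 12 cases, each within its error of 0: PLAAT4 at 7 days against 48 h went from -0.18 to at most 0.07, TLCD2 there from -0.1 to 0.04, OLFML2A there from 0.14 to -0.39, AMY2B under THZ1 from -0.08 to 0.19 and IQCN under THZ1 from 0.08 to -0.1. Within lines there were 25 cases, and 0 of those with a test were called in either fit. Across lines, the members called stayed at 0 for 7 days against 48 h and for the interaction, at 7 to 9 (8 as reported) for 7 days against DMSO, and at 2 to 3 for the combination against THZ1 when a line or replicate was left out. With only the arms of the comparison fitted, 1 member was called for THZ1 against DMSO (MYEOV at 0.66, adjusted p 0.0311) and 5 for the combination against THZ1, and DESeq2 called 4 there. With 2 arms only, PLAAT4 at 7 days against DMSO was not called (2.10, adjusted p 0.11). OLFML2A passed in the combination against THZ1 without A375 (1.59, adjusted p 0.0413) and CCDC80 without H3122 (1.82, adjusted p 0.0479). Within lines, the pairs called of 54 were 20 to 30 for THZ1 against DMSO, 32 to 35 for the combination against THZ1, 29 to 38 for 7 days against 48 h and 46 to 48 for 7 days against DMSO. With a replicate block these were 29, 33, 36 and 48. Without the libraries that stand apart MYEOV under BGJ398 in RT112 was -6.37 in place of -5.37. Over all genes, THZ1 against DMSO gave 9 calls in edgeR, 194 in DESeq2 and 694 with 2 arms, the combination against THZ1 gave 2454 and 1211 without a filter or 678 without N87, and 7 days against DMSO gave 5173 and 2935 with 2 arms. The causes were not tested. Members at a few counts per library (AMY2B, EBF4, IQCN, PLAAT4 outside PC9 and RT112, and SELENOP in DMSO of A375, H3122 and RT112) are limited by depth.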
